A study of Mus musculus with 4 samples.

Results

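The LY6 surface proteins described here are the products of 6 mouse genes, Ly6a, Ly6c1, Ly6c2, Ly6e, Ly6g and Ly6i. They were found by matching the Ensembl gene IDs of the count table to these symbols, and all 6 are among its 49315 genes. The data are poly(A) RNA sequencing of bone marrow-derived macrophages, which are grown from marrow progenitors, here with L-cell conditioned medium as the source of macrophage growth factor. Both groups are from Lyz2Cre+ mice, in which Cre recombinase is expressed from Lyz2, a gene of the myeloid lineage. No floxed allele, age or sex is named in the labels, and they do not say how many animals were used or whether marrow was pooled. Polarization began on day 7 and lasted 24 hours, in serum-free medium. For the M1 group (n = 2 libraries) the stimulus was LPS at 100 ng/ml with IFNg, interferon gamma, at 50 ng/ml. For the M2 group (n = 2) it was IL-4 with IL-13, each at 10 ng/ml. The series also concerns erlotinib (1 uM), an EGF receptor inhibitor, and whether it was added to any of the cultures used here is not stated. Cells without a polarizing stimulus were not analysed here, so a gene higher in M1 may equally be described as lower in M2.

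LY6 proteins are small, cysteine-rich proteins that are attached to the outer face of the plasma membrane by a glycosylphosphatidylinositol (GPI) anchor. Several are classical surface markers of mouse leukocytes. Ly6a is Sca-1, used to sort haematopoietic stem cells and known to be induced by interferons in many cells. Ly6c1 and Ly6c2 together encode the Ly6C antigen, which separates inflammatory from patrolling monocytes. Ly6g is the neutrophil marker Ly6G. Ly6e is a widely expressed, interferon-inducible member known for its effects on virus entry, and Ly6i is a close relative of Ly6a.

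The 6 genes lie together on chromosome 15 of GRCm38 within 204 kb, and each is annotated as protein coding. Ly6e (chr15:74955051-74959905) and Ly6g (chr15:75155240-75159126), at the outer ends, are on the plus strand. Ly6i (chr15:74979534-74983430), Ly6a (chr15:74994877-74998031), Ly6c1 (chr15:75044018-75048830) and Ly6c2 (chr15:75108158-75111970) lie between them on the minus strand. A further 28 genes of the count table lie among them or within 200 kb on either side, of which 14 are annotated as pseudogenes. Only 1 of these 28, Ly6d, had enough counts to be tested, and of the others none had more than 9 counts in the 4 libraries together. The high transcript levels of this stretch were therefore those of the members themselves. The values of 6 of the 28 neighbours came from the M1 libraries alone, with 2 to 8 counts each, at or near the limit of detection.

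**Figure D1:**
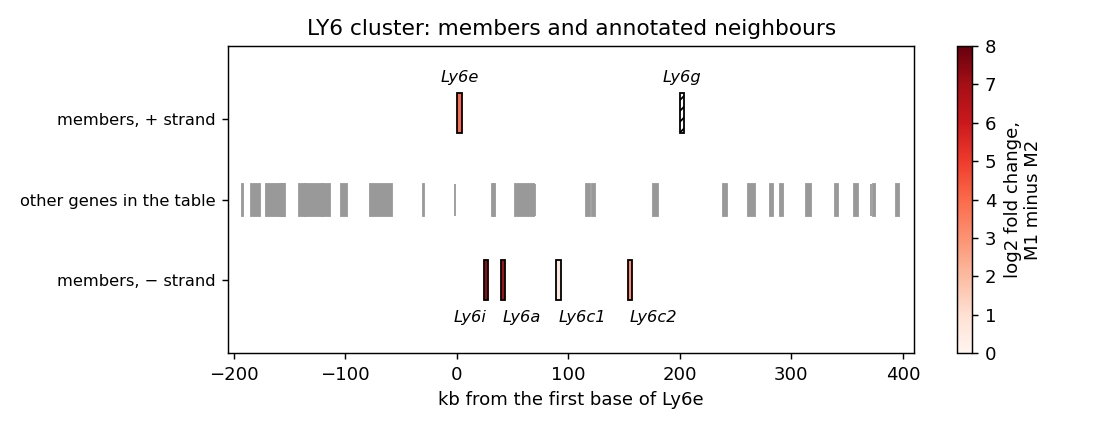
The LY6 cluster drawn to scale in kb from the first base of Ly6e, with members by strand (boxes, coloured by the log2 fold change of M1 over M2; hatched where not tested) and the other genes of the count table in grey. Ly6i and Ly6a, side by side, have the darkest boxes, and Ly6c1, between Ly6a and Ly6c2, has the palest.

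Near-identical genes can share reads, so the coding sequences were compared first. The first 90 bases of each coding sequence, which encode the signal peptide and the start of the mature protein, are shown because they let the copies be compared by eye. They are from GENCODE vM21, 5′ to 3′, from the longest coding transcript of each gene, with capitals at the positions that differ from Ly6a.
Ly6a: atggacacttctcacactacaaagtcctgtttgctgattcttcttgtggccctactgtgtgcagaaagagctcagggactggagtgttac
Ly6i: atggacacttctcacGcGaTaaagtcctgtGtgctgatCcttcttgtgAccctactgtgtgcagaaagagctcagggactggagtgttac
Ly6c1: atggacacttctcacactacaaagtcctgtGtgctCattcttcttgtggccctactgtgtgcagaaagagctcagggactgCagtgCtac
Ly6c2: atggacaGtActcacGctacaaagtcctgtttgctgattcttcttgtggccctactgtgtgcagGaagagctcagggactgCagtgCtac
Ly6g: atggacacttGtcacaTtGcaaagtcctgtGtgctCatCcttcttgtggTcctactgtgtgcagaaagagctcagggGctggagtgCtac
Ly6e: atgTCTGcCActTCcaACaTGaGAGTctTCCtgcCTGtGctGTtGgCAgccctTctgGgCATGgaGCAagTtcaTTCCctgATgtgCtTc
Ly6c1 differed from Ly6a at 4 of these 90 positions, Ly6i and Ly6c2 at 6 each and Ly6g at 9, whereas Ly6e differed at 46. Over the whole coding sequence Ly6c1 and Ly6c2 were 97.7% identical, with 9 differing bases of 396 and an identical run of 188 bases. Ly6a and Ly6i were 86.4% identical, and Ly6e was 58.8% to 60.8% identical to the other members.

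Despite this likeness, few stretches of the length of a read were shared. Of the 1706 different 150-base windows in the annotated transcripts of Ly6c1, 39 (2.29%) also occurred in Ly6c2, and these were 1.42% of the 2737 windows of Ly6c2. No 150-base window of Ly6a, Ly6e, Ly6g or Ly6i occurred in a transcript of any other gene. Mismatches, soft clipping and the mate of a read were not considered, and the sources used here do not say how reads matching several genes were counted. The values of Ly6c1 and Ly6c2 are therefore given apart and as a sum.

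Of the 14656 genes with enough counts to be tested, 37.5% were called higher in M1 and 39.7% lower, and 77.2% were called either way (edgeR quasi-likelihood test, adjusted p under 0.05). Of the 6 members, 5 passed the filter. Ly6a, Ly6e, Ly6i and Ly6c2 were called higher in M1, Ly6c1 was not called, and Ly6g had too few counts to test. Ly6i and Ly6c2 passed the filter only through their M1 libraries, so that a difference in them was built into their being tested. In all 5 tested members both M1 libraries lay above both M2 libraries, which was true of 42.7% of all tested genes. Values below are CPM, read counts scaled to a common library size with TMM factors, and log2 fold changes are M1 minus M2 with the standard error (SE) of the fit. In bulk RNA, fewer cells expressing a gene and less RNA per cell cannot be told apart. The labels name no separate animal or culture for each replicate. The p-values therefore reflect the spread of these 4 libraries alone, and that spread may be technical.

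**Figure D2:**
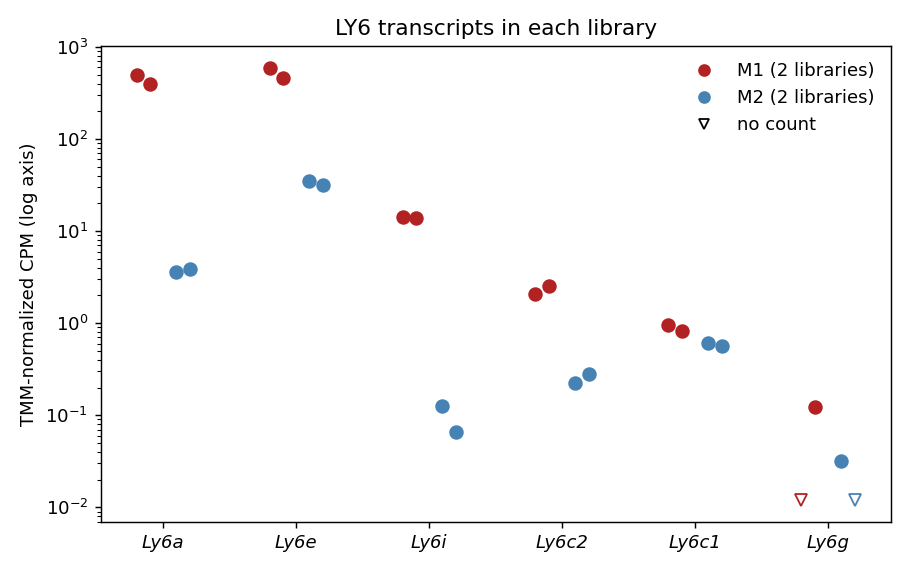
CPM of each member in each of the 4 libraries on a log axis; each point is 1 library and open triangles stand for libraries with no count. Ly6a and Ly6e lie between 392 and 597 CPM in the M1 libraries, and the M1 and M2 points of Ly6c1 lie close together.

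Ly6a had 496 and 392 CPM in the M1 libraries and 3.64 and 3.84 CPM in the M2 libraries. The groups were far apart, and M1 replicate 1 was the higher of the M1 pair. The means were 444 ± 73.8 CPM in M1 and 3.74 ± 0.143 CPM in M2 (SD, n = 2 each). The fitted difference was 118-fold (log2 fold change 6.89, SE 0.14, edgeR adjusted p = 8.06e-12). By size of the fold change Ly6a stood 189th from the M1 end of the 14656 tested genes. The ratio of pooled counts, 24101 in M1 to 291 in M2, was 119 after scaling, with an exact 95% counting interval of 106 to 134. Ly6a thus remained measurable in M2, at 114 and 177 counts.

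Ly6i, the neighbour of Ly6a on the chromosome, showed the largest fold among the members at a much lower level. It had 14.3 and 13.9 CPM in the M1 libraries and 0.128 and 0.0651 CPM in the M2 libraries. The M1 values nearly coincided, and the M2 values rest on 4 and 3 counts. The fitted difference was 149-fold (log2 fold change 7.22, SE 0.23, edgeR adjusted p = 2.28e-13), in 157th place. Since Ly6i passed the filter only through its M1 libraries, this adjusted p is no independent support for the difference. Because the M2 counts are so few, the pooled ratio of 156 carries a counting interval of 75.3 to 389, which takes in the fold of Ly6a. The order of Ly6i and Ly6a by fold is therefore not resolved.

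Ly6e was the most abundant member by CPM in every library. It had 597 and 461 CPM in the M1 libraries and 35.0 and 31.4 CPM in the M2 libraries. Its groups did not overlap, but M2 kept a substantial level, 33.2 ± 2.52 CPM against 529 ± 96.4 in M1 (SD, n = 2 each). The difference was 16.0-fold (log2 fold change 4.00, SE 0.14, edgeR adjusted p = 5.30e-08), in 568th place. Its counting interval, 15.6 to 16.9, lies below those of Ly6a and Ly6i in counting error alone. The interval leaves out the spread between libraries. Without M1 replicate 1 the log2 fold change was 3.81, and without M1 replicate 2 it was 4.18.

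Ly6c2, a source of the Ly6C antigen, was a low-level transcript in both groups. It had 2.06 and 2.52 CPM in the M1 libraries and 0.223 and 0.282 CPM in the M2 libraries, from 60, 62, 7 and 13 counts. Unlike Ly6a and Ly6e, it was higher in M1 replicate 2 than in replicate 1. The difference was 8.72-fold (log2 fold change 3.12, SE 0.31, edgeR adjusted p = 2.43e-07), with a pooled counting interval of 5.45 to 14.9. Since Ly6c2 passed the filter only through its M1 libraries, this adjusted p is no independent support for the difference.

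Ly6c1, the near-identical partner of Ly6c2, had 0.960 and 0.813 CPM in the M1 libraries and 0.606 and 0.564 CPM in the M2 libraries. These values come from 28, 20, 19 and 26 counts. The M1 libraries lay above the M2 libraries, but the log2 fold change of 0.61 (SE 0.32) did not pass the test (edgeR adjusted p = 0.0928). The pooled counting interval of the ratio ran from 1.00 to 2.36. The upper bound lies below the lower bound of Ly6c2, 5.45, in counting error alone, and a test of the difference between the pair over libraries was not made. Summed into 1 feature, Ly6c1 and Ly6c2 had 3.02 and 3.33 CPM in M1 and 0.830 and 0.846 CPM in M2. The sum was called higher in M1 (log2 fold change 1.91, SE 0.22, edgeR adjusted p = 1.24e-06). The sum does not depend on how reads shared by the pair were divided between its members. It would still lack any shared reads that the counting left out. Whether the division or loss of shared reads affects the contrast between Ly6c1 and Ly6c2 was not tested.

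Ly6g had no count in M1 replicate 1, 3 counts in M1 replicate 2, 1 count in M2 replicate 1 and none in M2 replicate 2. A count of 0 allows up to 3 counts, which is 0.103 CPM in M1 replicate 1 and 0.0651 CPM in M2 replicate 2, so no level or fold is given for this neutrophil marker. These limits cover counting error only.

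**Figure D3:**
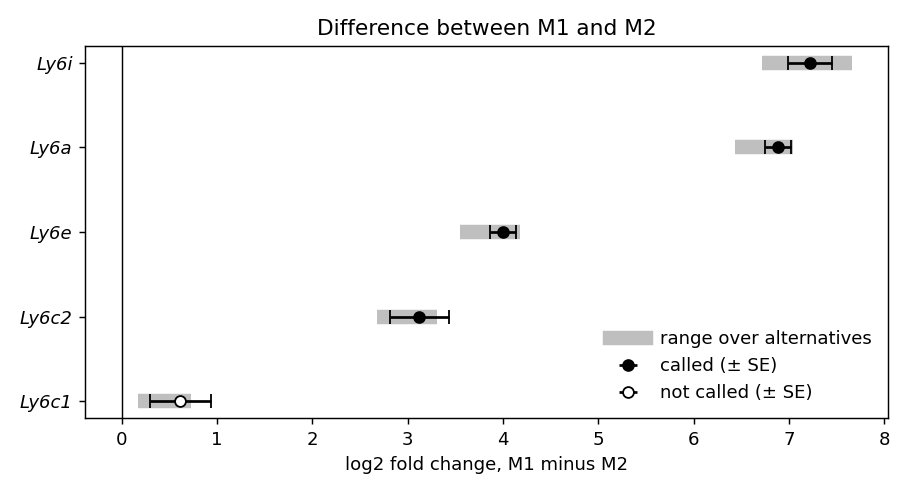
Log2 fold change of M1 over M2 for the 5 tested members (points, with bars of 1 SE; filled where called) and its range over the alternative normalizations, filters, tests and left-out libraries (grey bars). The 4 called members lie above 2 under every alternative that tested them, and Ly6c1 stays below 1.

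Because Ly6a and Ly6e were both lower in M1 replicate 2 than in replicate 1, the spread within M1 was set beside that of other genes. Replicate 2 over replicate 1 was 0.790 for Ly6a, 0.772 for Ly6e, 0.969 for Ly6i and 1.22 for Ly6c2. Among 11486 tested genes of at least 1 CPM in M1, the middle 90% of such ratios ran from 0.779 to 1.26. Ly6e lay just outside this range and Ly6a near its edge. These differences are small beside the differences between groups.

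Levels of different genes can be compared only per length, so CPM was divided by the kilobases of exon annotated for each gene. On this scale Ly6a was the highest member in M1, at 368 ± 61.3 CPM per kb, followed by Ly6e at 140 ± 25.5 and Ly6i at 12.2 ± 0.270 (SD, n = 2 each). Ly6c2 (0.835 ± 0.119) and Ly6c1 (0.529 ± 0.0622) came next, far below. In M2 the order was different: Ly6e led at 8.78 ± 0.666 CPM per kb, then Ly6a at 3.10 ± 0.119 and Ly6c1 at 0.349 ± 0.0178. Ly6c2 (0.0922 ± 0.0151) and Ly6i (0.0833 ± 0.0383) came last, and their libraries overlapped. On this scale Ly6i thus stood directly below Ly6e in M1 and level with Ly6c2 at the low end in M2. The tie in M2 depends on the length used. By the longest coding transcript, Ly6c2 had 0.272 and 0.343 CPM per kb in the M2 libraries, above Ly6i at 0.110 and 0.0563.

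**Figure D4:**
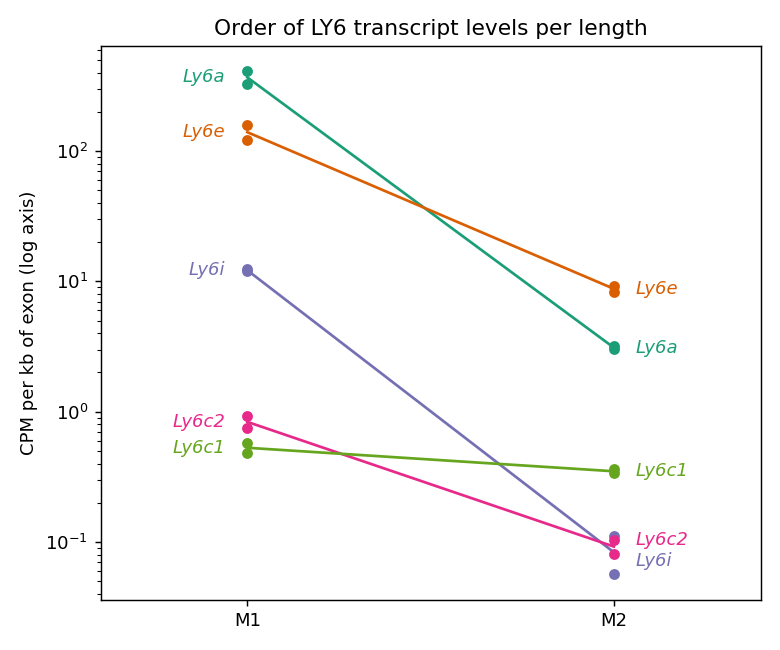
CPM per kb of exon on a log axis for the 5 members with a tested level; points are libraries and lines join the group means. The lines of Ly6a and Ly6e cross, as do those of Ly6c1 with Ly6c2 and with Ly6i; the Ly6c2 and Ly6i points overlap in M2.

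The ratio of members within a library does not depend on the scaling of libraries. Ly6a stood at 2.61 and 2.67 times the level of Ly6e per kb in the M1 libraries and at 0.326 and 0.384 times in the M2 libraries. The ratio of Ly6c2 to Ly6c1 was 1.31 and 1.90 in M1 and 0.225 and 0.306 in M2. In neither pair did the groups overlap, and the exact permutation p of 0.333 for each is the smallest that 2 libraries against 2 allow. The annotated length matters for the second pair, since the exons of Ly6c2 include a retained intron. With the longest annotated transcript as length, the mean ratio in M1 was 0.826 in place of 1.60, which turned the order of Ly6c2 and Ly6c1 there.

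Together the members took 0.0940% and 0.0753% of all counts in the M1 libraries and 0.00463% and 0.00422% in the M2 libraries. Ly6e and Ly6a made up nearly all of this. In M1 Ly6e held 53.8% and 53.0% of the members' counts and Ly6a 44.7% and 45.0%. In M2 Ly6e held 88.3% and 86.9%, and Ly6a 9.18% and 10.6%. Ly6c1, at most 0.0934% of the members' counts in M1, reached 1.53% and 1.56% in M2.

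**Figure D5:**
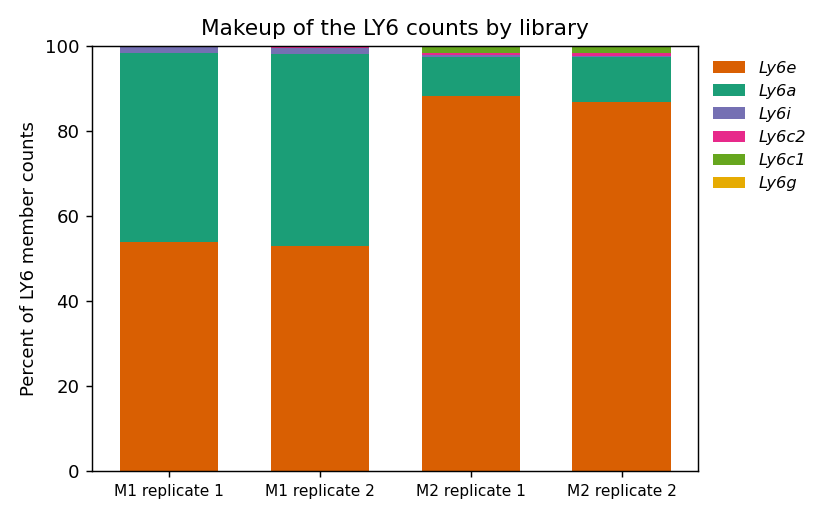
Share of the members' counts taken by each of the 6 genes (stacked bars, percent, from 0) in each library. Ly6a takes 44.7% and 45.0% in the M1 libraries and 9.18% and 10.6% in the M2 libraries, with Ly6e filling most of the rest.

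Ly6c1 and Ly6c2 differ more upstream of their starts than in their coding parts, and their promoters are shown for that reason. Of the 6 members, 3 had an entry in the RefSeq promoter table (GRCm38.p6): Ly6c1, Ly6c2 and Ly6g. The 250 bases before the start nearest to the GENCODE start were searched on both strands for an IL-4 type STAT6 site (TTC, any 4 bases, GAA), an interferon-stimulated response element core (GAAA, any 2 bases, GAAA), an NF-kappaB core (GGG, any 5 bases, CC) and a PU.1 core (GAGGAAGT). Capitals mark the matches, and both sequences are written 5′ to 3′ on the minus strand, from chr15:75048838-75049087 for Ly6c1 and chr15:75111972-75112221 for Ly6c2.
Ly6c1 promoter: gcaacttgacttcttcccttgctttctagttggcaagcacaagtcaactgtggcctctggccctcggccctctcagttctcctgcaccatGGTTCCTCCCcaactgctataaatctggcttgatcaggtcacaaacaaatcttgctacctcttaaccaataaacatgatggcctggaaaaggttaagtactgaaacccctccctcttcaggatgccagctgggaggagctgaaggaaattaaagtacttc
Ly6c2 promoter: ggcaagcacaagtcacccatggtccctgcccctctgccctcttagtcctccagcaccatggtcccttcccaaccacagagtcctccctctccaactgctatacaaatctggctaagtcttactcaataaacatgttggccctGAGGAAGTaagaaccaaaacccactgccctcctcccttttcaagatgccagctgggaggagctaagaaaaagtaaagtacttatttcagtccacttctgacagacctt
Aligned without their gaps, these promoters were 75.9% identical over 216 bases. Neither window held a match to the STAT6 or interferon response letters, which occur in 5.89% and 2.98% of the 32536 different promoter windows in the table. The Ly6c1 window held 1 match to the NF-kappaB core, a loose pattern found in 46.0% of all windows. The Ly6c2 window held 1 match to the PU.1 core, 108 to 101 bases before the start, which 2.45% of windows hold. The Ly6g window held both an NF-kappaB core and, 31 to 24 bases before its start, the PU.1 core. No matches overlapped in these windows, and a match of letters is not a measured binding site.

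Few other members of the wider LY6/uPAR family, which share the fold, had enough counts to test. Of 41 matched relatives, 22 had a count, 19 had none and 5 passed the filter, of which 2 were called higher in M1, 2 lower and 1 was not called. Over all tested genes 37.5% were called higher and 39.7% lower, and the relatives' shares lie near these, so the count is no result about the family. The median log2 fold change of the tested relatives was 0.40, against -0.04 for all tested genes. Plaur, the urokinase receptor, had 134 and 128 CPM in M1 and 53.3 and 56.0 CPM in M2 and was higher in M1 (log2 fold change 1.25, SE 0.06, edgeR adjusted p = 4.71e-11). Ly6d, a lymphoid member on the same chromosome, was also called higher in M1 (1.85, SE 0.40) on 22, 21, 6 and 11 counts. Like Ly6i and Ly6c2, it passed the filter only through its M1 libraries. Cd59a, an inhibitor of the complement membrane attack complex, went the other way, with 1.41 and 0.894 CPM in M1 and 8.87 and 7.98 CPM in M2 (log2 fold change -2.84, SE 0.19, edgeR adjusted p = 1.58e-09). Lynx1, a modulator of nicotinic receptors, was lower in M1 (log2 fold change -0.95, SE 0.22), and Ly6g5b (0.40, SE 0.44) was not called.

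Genes of the enzymes that build and attach the GPI anchor differed in both directions. Of 32 genes on the list, all tested, 12 were called higher in M1, 12 lower and 8 were not called, with a median log2 fold change of 0.02. These shares lie near those of all tested genes, 37.5% higher and 39.7% lower with a median of -0.04, so the count is no result about the list. Under total-count scaling the same list gave 5 higher and 20 lower. Pgap1, which removes an acyl chain from the anchor after attachment, was lower in M1, at 15.2 and 12.4 CPM against 99.5 and 100.7 in M2 (log2 fold change -2.85, SE 0.08). Pigz (-1.89, SE 0.21) and Pigp (-1.22, SE 0.10) were lower too. Pigv, a mannosyltransferase of the pathway, was higher in M1 (1.86, SE 0.08), as were Pigo (0.98, SE 0.09) and the anchor-remodelling gene Pgap2 (0.75, SE 0.06). Each of these 6 kept its direction and its call under the alternatives that tested it.

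Of 19 interferon receptor and signalling genes, 15 were called higher in M1, 1 lower and 3 were not called, with a median log2 fold change of 1.92. Over all tested genes 37.5% were called higher and 39.7% lower, with a median of -0.04. Socs3, an inhibitor of cytokine signalling, had 1052 and 969 CPM in M1 and 3.67 and 3.47 CPM in M2 (log2 fold change 8.15, SE 0.10). Usp18, which restrains the type I interferon receptor, was higher in M1 by 6.44 log2 units (SE 0.12), and the transcription factor Stat2 by 4.43 (SE 0.09). Ifngr1, a chain of the interferon gamma receptor, was the 1 called lower in M1 (-1.33, SE 0.06). Total-count scaling gave 5 lower on this list and upper-quartile scaling gave 4.

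GPI-anchored proteins signal through membrane domains that hold Src family kinases and scaffold proteins. Of 16 such genes, 8 were called higher in M1, 7 lower and 1 was not called, with a median of 0.14. Over all tested genes 37.5% were called higher and 39.7% lower. The kinases Lyn (2.99, SE 0.07) and Src (1.63, SE 0.07) were higher in M1 on the log2 scale. The caveolins Cav1 (-3.08, SE 0.14) and Cav2 (-2.78, SE 0.08) and the adaptor Lat2 (-2.88, SE 0.08) were lower.

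The genes whose profile over the 4 libraries was most like that of each member were found by Euclidean distance between centred log2 CPM values. A prior count of 2 was added before taking logs, which shrinks the differences of genes with few counts. With 4 libraries in 2 groups this mainly matches the size of the difference between groups. Nearest to Ly6a were Ch25h, Spic and Cd86, at distances of 0.20, 0.21 and 0.21 log2 units. Nearest to Ly6i were Stat4 (0.14), Il2ra (0.19) and Usp18 (0.21). The fitted log2 fold changes of Usp18 and Ly6i, 6.44 and 7.22, lay further apart than that distance. Ly6e had closer neighbours, Il15 (0.06), Oas1b (0.08) and Ifih1 (0.08), which like it were lower in M1 replicate 2 than in replicate 1. Nearest to Ly6c2 were Nr4a1 (0.13), Tmem110 (0.14) and Acyp2 (0.17). Nearest to Ly6c1 were Sos1, Polg2 and Trrap, at 0.03 each. The likeness is a description and carries no test.

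Library totals ran from 26806370 to 39506242 counts. Since several members mark other cell types, lists of cell markers were summed. Macrophage markers, led by Adgre1 and C1qb, were all counted (10 of 10) and summed to 8114 to 8458 CPM in M1 and 7758 to 7783 CPM in M2. Neutrophil markers (14 of 14 counted) summed to 141 to 150 CPM in M1 and 129 to 130 in M2, of which Csf3r, also a gene of monocytes, gave 108 to 134 CPM and Mmp8 at most 6.52. Other neutrophil markers went in different directions. S100a8 had 7.89 and 8.78 CPM in M1 and 1.98 and 3.28 in M2, whereas its partner S100a9 had 0.720 and 0.447 CPM in M1 and 3.73 and 4.71 in M2. Cxcr2, a chemokine receptor of neutrophils, had no M1 count and 18 and 11 counts in M2. Markers of Ly6C-high monocytes (10 of 10 counted; Fn1 and Gsr the most abundant) summed to 563 to 590 CPM in M1 and 1072 to 1080 in M2. Among them the chemokine receptor Ccr2 had 2.33 and 1.14 CPM in M1 and 6.13 and 6.62 in M2. Ly6C-low monocyte markers (10 of 10 counted; led by Itgal and Pou2f2) summed to 2367 to 2508 CPM in M1 and 52.7 to 56.6 in M2.

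Markers of cells known for Ly6a also differed between the groups. Stem and progenitor markers (8 of 8 counted) summed to 4143 to 4187 CPM in M1 and 29.7 to 32.7 in M2. Procr alone gave 4057 and 4099 CPM in M1, with Slamf1 next, and the stem cell factor receptor Kit had 7.17 and 6.58 CPM in M1 against 0.223 and 0.304 in M2. Cd34 went the other way, at 0.995 and 0.813 CPM in M1 and 2.42 and 2.04 in M2. Endothelial markers (8 of 8 counted; led by Pecam1 and Kdr) summed to 267 to 288 CPM in M1 and 107 to 111 in M2, but their members did not share this direction. Pecam1 had 146 and 121 CPM in M1 and 6.35 and 7.38 in M2, and Kdr 136 and 139 against 1.91 and 1.84. Vwf, which gave most of the M2 sum, had 5.35 and 5.93 CPM in M1 and 100.7 and 96.4 in M2, and the other 5 markers had at most 0.889 CPM in any library. Stromal markers (8 of 8; Col1a1 and Col1a2) summed to 119 to 126 CPM in M1 and 1166 to 1191 in M2, and 6 of them were lower in M1. Dcn and Lum went the other way. Dcn had 17.5 and 12.5 CPM in M1 and 6.09 and 7.66 in M2, and Lum 1.30 and 1.38 against 0.638 and 0.673. Dendritic cell markers (8 of 8; mainly Bst2, itself interferon-inducible, then Tcf4) summed to 1092 to 1241 CPM in M1 and 184 to 186 in M2. T and NK cell markers (10 of 10; Cd4 and Lck) summed to at most 4.63 CPM in any library, B cell markers (6 of 6; Ighm and Cd79b) to at most 17.0 and erythroid markers (6 of 6; Hbb-bs and Hba-a1) to at most 3.51. Of 6 basophil and mast cell markers, Ms4a2 and Prss34 had no count, and the rest, led by Mcpt8 and Cpa3, summed to at most 0.651 CPM. The part of any of these cell types in the members' levels was not tested.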

How the data were processed

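Per the labels' protocols, the libraries were made by oligo(dT) selection with a kit that does not mark strand and were read as paired 150-base reads, so reads of overlapping genes cannot be told apart. Per the submitters' processing notes, Trimmomatic 0.36, STAR 2.5.2b, featureCounts, Subread 1.5.2, DESeq2, DESeq and the build GRCm38 were used. The sources used here do not give their roles or settings. Whole-number read counts per gene, not normalized, were deposited by the authors. Their table of fold changes was not used here.

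The fit on all 4 libraries used edgeR 4.0.16 in R 4.3.3: filterByExpr (count threshold 10, total 15), TMM, robust quasi-likelihood F test, two-sided, Benjamini-Hochberg adjustment over 14656 genes and calls at 0.05. Each SE was obtained from the fitted log2 fold change and the square root of its F statistic. TMM factors were 0.846 and 0.866 for M1 and 1.17 for both M2 libraries. Symbols, lengths and coordinates are from GENCODE vM21 on GRCm38. Alternatives used DESeq2 1.42.0, limma 3.58.1 (voom), other scalings and filters, summed paralogs and each library left out. Counts of 14656 genes were also simulated in 3 sets, with 200 genes changed in each and 1 common spread for all genes. On these the fit recovered 58.8% of log2 changes of 0.5, 82.5% of 1 and 97.4% of 2, with 4.06% of calls false. In the real data 77.2% of tested genes were called and the spread differs by gene, so these shares do not describe the calls made here.

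The members, lists and naming rule were chosen with earlier results of these data known. The rule named all members, relatives of at least 1 CPM in either group, the 3 largest called changes each way in the other lists, the 2 most abundant markers of each cell type and the 3 nearest profiles of each tested member. Ly6d, Ly6g5b, Cxcr2, S100a8, S100a9, Vwf, Ccr2, Cx3cr1, Ace, Pglyrp1, Eno3, Kit, Cd34, Dcn, Lum, Ms4a2 and Prss34 were named after their values were seen. Some items that the rule or the motif search covered are not reported here. Of 44 relatives listed, Ly6g2 and Lypd10 were not matched and 1 gene stood under 2 names.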

Additional observations from a re-analysis of the deposited data

How the results depend on the processing

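Ly6a, Ly6e, Ly6i and Ly6c2 kept their direction and call under the other scalings, filters and tests and without any 1 library. The exception is that the filter of 5 CPM did not test Ly6c2 and Ly6c1. Ly6i and Ly6c2 passed the main filter only through their M1 libraries, and their calls under it carry that limit. Ly6c1 was not called under any of 11 alternatives (adjusted p 0.0809 to 0.639), apart from sums: its pair sum gave 1.91, and the sum of Ly6a, Ly6c1, Ly6c2, Ly6g and Ly6i gave 6.62, both called. Scaling to total counts moved the median gene by -0.45 log2 units and left 3343 genes called higher in M1, or 28.1% of calls against 48.6% under TMM and 39.2% under upper-quartile scaling, which moved it by -0.18. Total counts also gave 5 higher and 20 lower GPI genes, 5 lower interferon genes (4 under upper-quartile scaling), and no call for Sos1, Polg2 and Trrap. The interferon genes called lower numbered 1 to 2 with a library left out, 2 being without M1 replicate 1. Relatives called lower were 4 with no filter, and 1 relative was called each way under the 5 CPM filter. With the longest annotated transcript as length, Ly6a over Ly6e was 2.01 in M1 and 0.270 in M2, also with the longest coding transcript, a length added after the data were seen. Ly6c2 over Ly6c1 was 0.826 and 0.137 by the longest transcript and 2.69 and 0.446 by the longest coding one. Why these values moved was not tested beyond what each setting changes by construction. No paired analysis was possible because the labels number no replicates. Depth limits Ly6g and the M2 level of Ly6i, which rest on at most 4 counts a library.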
